A study of Mus musculus with 9 samples.

Results

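Histone methyltransferases and the polycomb complexes place methyl groups and ubiquitin on histone tails, and 39 genes for these enzymes and their partners were followed here. They were taken by gene symbol from a list arranged by the residue that is methylated or the complex the protein joins. All 39 were found among the 49216 genes with a count, and all 39 were among the 18234 genes with enough counts to be tested. RNA was measured by poly-A sequencing in cultured pachytene and diplotene spermatocytes, male germ cells in meiotic prophase, from C57Bl mice. The cells had been sorted from digested testes by a tdTomato reporter driven by a germ cell promoter. Oxamate is a pyruvate analog that inhibits lactate dehydrogenase, and octyl-L2HG is a cell-permeable ester of L-2-hydroxyglutarate, a metabolite that inhibits 2-oxoglutarate-dependent dioxygenases such as the histone demethylases. The group called octyl-L2HG plus oxamate below had received 0.3 mM octyl-L2HG on top of 24 mM oxamate for 48 h (3 libraries). The oxamate group had 24 mM oxamate alone for 48 h (3 libraries), and the untreated group had neither agent (3 libraries). No culture time is given for the untreated cells, and no group here had octyl-L2HG without oxamate, so the effect of octyl-L2HG is seen only on top of oxamate. The labels do not say whether the libraries of a group, lettered A, B and C, came from separate mice or cultures, so p-values measure only the spread between these libraries.

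Methylation of histone H3 at lysine 4 marks active promoters and enhancers, methylation at lysine 36 and lysine 79 marks transcribed genes, and methylation at H3 lysine 9 and H4 lysine 20 marks silent chromatin and chromosome condensation. Polycomb repressive complex 2 (PRC2) methylates H3 lysine 27, and polycomb repressive complex 1 (PRC1) ubiquitinates histone H2A and compacts chromatin. In male meiosis these systems are known for marking recombination sites, for silencing the X and Y chromosomes in pachytene cells, and for keeping somatic genes off in the germ line.

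Library totals ran from 24849620 to 46671048 counts, and levels are given as CPM, counts scaled to library size with the trimmed mean of M values. Markers of pachytene and diplotene spermatocytes were abundant, with a summed level over 10 genes of 10687 to 12458 CPM in octyl-L2HG plus oxamate libraries, 11159 to 11619 CPM in oxamate libraries and 12584 to 13387 CPM in untreated libraries. The sum was thus higher in every untreated library than in any treated one. Most of the sum came from Ldhc, Ybx2, Hspa2 and Adam3, with untreated means of 3640, 2953, 2720 and 1900 CPM. Of the 10 markers, 3 had a positive log2 change in octyl-L2HG plus oxamate against untreated cells. Sycp1 and Hormad1 had means of 306 and 167 CPM in octyl-L2HG plus oxamate cells and of 214 and 141 CPM in untreated cells. In octyl-L2HG plus oxamate against untreated cells, 4 of these 10 markers were called lower and 1 higher, beside 21.1% and 17.2% of all tested genes. The synaptonemal complex gene Sycp3 had 174 to 238 CPM and 158 to 182 CPM in these groups and was not called. Sertoli cell markers summed to under 0.87 CPM over 8 genes in every library, with 1 of the 8 at 0 throughout, and the defining gene Sox9 had 0 to 3 counts per library. Leydig cell markers summed to 1.75 to 3.96 CPM over 5 genes, most of it from Star with 52 to 139 counts, against 3 to 9 counts of Cyp17a1. Star was called lower in oxamate than in untreated cells (limma log2 change -0.83 ± 0.19, adjusted p = 0.021). Peritubular and macrophage markers summed to 3.64 to 10.1 CPM over 6 genes, with the macrophage gene Csf1r at 8.01 CPM in octyl-L2HG plus oxamate library B and at 1.43 to 4.11 CPM in the others. Spermatid markers were present and differed between the groups. The 10 elongating spermatid markers summed to 110.1, 126 and 308 CPM in octyl-L2HG plus oxamate libraries A, B and C, to 937, 793 and 992 CPM in oxamate libraries, and to 1201, 1031 and 1180 CPM in untreated libraries. The 12 round spermatid markers summed to 538 to 646 CPM in octyl-L2HG plus oxamate libraries, 939 to 999 CPM in oxamate libraries and 997 to 1083 CPM in untreated libraries. The part of these spermatid differences in the results below was not tested. In bulk RNA, fewer cells of a type and less RNA per cell cannot be told apart.

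Per kilobase of exon, which allows levels to be compared between genes, the members spanned more than 3 orders of magnitude, as the plot of levels per kilobase shows. In untreated cells 14 of the 39 stood at 10 or more CPM per kb, 16 between 1 and 10, and 9 below 1. The H3 lysine 79 methyltransferase gene Dot1l and Ehmt2 were the highest. Dot1l stood at 70.5 ± 4.7 CPM per kb in octyl-L2HG plus oxamate, 72.2 ± 7.0 in oxamate and 64.7 ± 5.4 in untreated cells (SD, n = 3 each). Ehmt2, which encodes the H3 lysine 9 methyltransferase G9a, stood at 59.4 ± 1.5, 64.4 ± 3.3 and 69.5 ± 3.8 CPM per kb in the same order of groups. Phc1, a polyhomeotic subunit of PRC1, came next at 49.99 ± 6.2, 52.0 ± 3.1 and 50.7 ± 2.4. The libraries of Dot1l and Ehmt2 overlapped in oxamate and in untreated cells, and those of Dot1l were the higher in octyl-L2HG plus oxamate cells. At the other end stood Setd7, an H3 lysine 4 monomethyltransferase with 4 to 21 counts per library, Ehmt1 with 10 to 29 counts and Smyd5 with 9 to 48 counts, so that only large changes could be seen for these 3 genes.

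**Figure D1:**
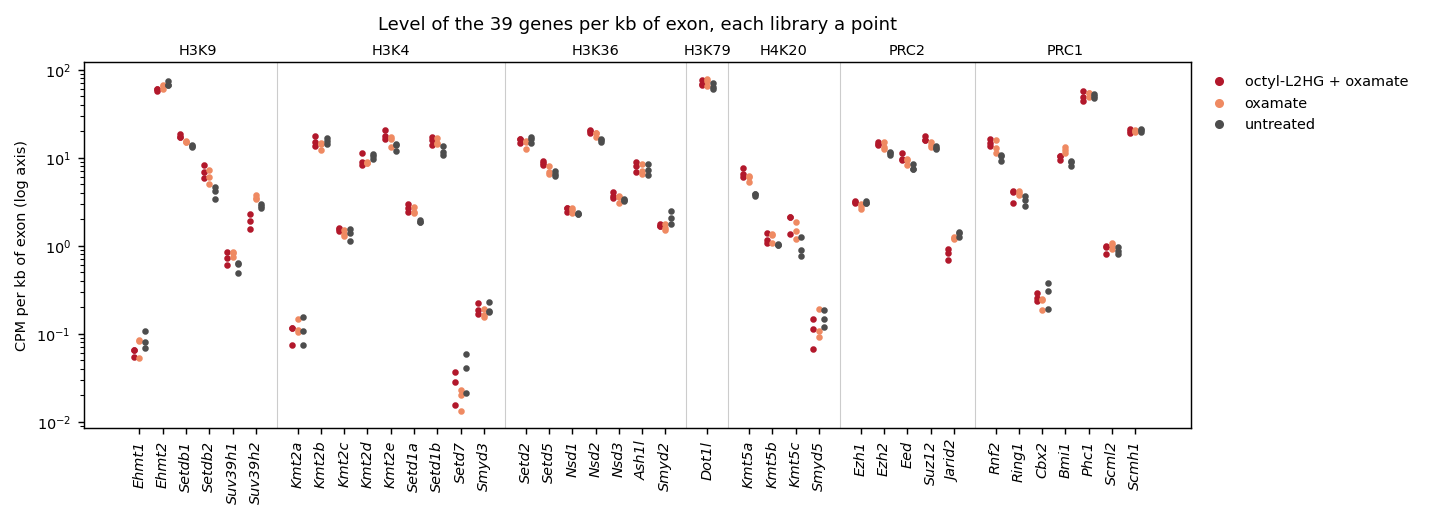
Level of each of the 39 genes in CPM per kb of exon on a log axis, 1 point per library, in octyl-L2HG plus oxamate, oxamate and untreated cells, from left to right for each gene. Dot1l, Ehmt2 and Phc1 stand above the rest, and Setd7, Ehmt1, Kmt2a and Smyd5 lie at the bottom.

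With oxamate against untreated cells 3 members were called higher, Kmt5a, Bmi1 and Setd1a, and no member was called lower. Kmt5a monomethylates H4 lysine 20, Bmi1 is a ring-finger subunit of PRC1, and Setd1a is the catalytic subunit of a complex that trimethylates H3 lysine 4 at promoters. A gene was called at an adjusted p under 0.05 (limma-voom, Benjamini-Hochberg over all 18234 genes). The 3 of 39 members called higher stand beside 5.74% of all tested genes, and the 0 called lower beside 3.84% of all tested genes. At an unadjusted limma p under 0.05, 12 members were higher, beside 14.0% of all genes, and 1, Smyd2, was lower, beside 12.6% of all genes. With the library letter as a block, 12 members were called higher, beside 12.1% of all genes. Again 0 were called lower, beside 9.99% of all genes. The letter was taken to pair the libraries of these groups. The block was fitted over all 9 libraries, so the octyl-L2HG plus oxamate libraries, not taken as paired, shared the same letter effect. The authors' deposited table, from a different test, has 7 of the 39 higher and 0 lower. The share of all genes called in that table was not counted here. In 16 of 39 members the 3 libraries of one group lay wholly apart from the 3 of the other, 13 higher and 3 lower in oxamate, beside 34.0% of all genes. The median log2 change of the members was 0.13, against -0.01 over all tested genes. Once trends with transcript length and GC content were removed from each library, an alternative added after the data were seen, the members' median was 0.06. Without untreated library C a single member, Kmt5a, was called higher, beside 223 of 18311 genes tested. Without octyl-L2HG plus oxamate library B, which enters the shared estimate of spread, 7 were, beside 8.53% of all genes.

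With octyl-L2HG added to oxamate, 3 members were called. Suv39h2, which encodes a trimethylating enzyme for H3 lysine 9 and is known for expression in the male germ line, and Jarid2, which helps recruit PRC2 to chromatin, fell. Setd5, a SET-domain gene, rose slightly. The 2 of 39 members called lower stand beside 15.4% of all tested genes, and the 1 called higher beside 4.11% of all tested genes. At an unadjusted limma p under 0.05, 3 members were lower, beside 19.0% of all genes, and 3 higher, beside 12.1% of all genes. The authors' deposited table has 2 lower, the same Suv39h2 and Jarid2, and 2 higher, Setd5 and Suz12. Its share over all genes was not counted here either. The 3 libraries of one group lay apart from those of the other in 8 of 39 members, 4 higher and 4 lower, beside 33.1% of all genes. The members' median log2 change was 0.11, against 0.07 over all tested genes. Of the 39 changes 26 were positive, beside 10832 of all 18234 tested genes. With the length and GC trends removed both medians were 0.02. Setd5 lost its call with those trends removed and when any 1 library other than oxamate library B was left out.

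Octyl-L2HG plus oxamate against untreated cells gave 16 calls among the 39 members. Higher were Setdb1, Setdb2, Kmt2e, Setd1a, Setd1b, Setd5, Nsd2, Kmt5a, Kmt5c, Ezh2, Eed, Suz12 and Rnf2, 13 members beside 17.2% of all tested genes. Lower were Ehmt2, Suv39h2 and Jarid2, 3 members beside 21.1% of all tested genes. The authors' deposited table also has 13 higher and 3 lower, again with no share over all genes counted. The groups did not overlap in 21 of 39 members, 17 higher and 4 lower, beside 51.3% of all genes. The median log2 change was 0.15 among the members and 0.01 over all tested genes. With the length and GC trends removed the members' median was 0.02, against -0.02 over all genes, and 8 members (20.5%) were called higher, beside 17.0% of all genes, with Setd1b, Nsd2, Ezh2, Suz12 and Rnf2 no longer among them. The 3 comparisons share libraries in pairs, so their changes are given side by side and not set against each other.

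**Figure D2:**
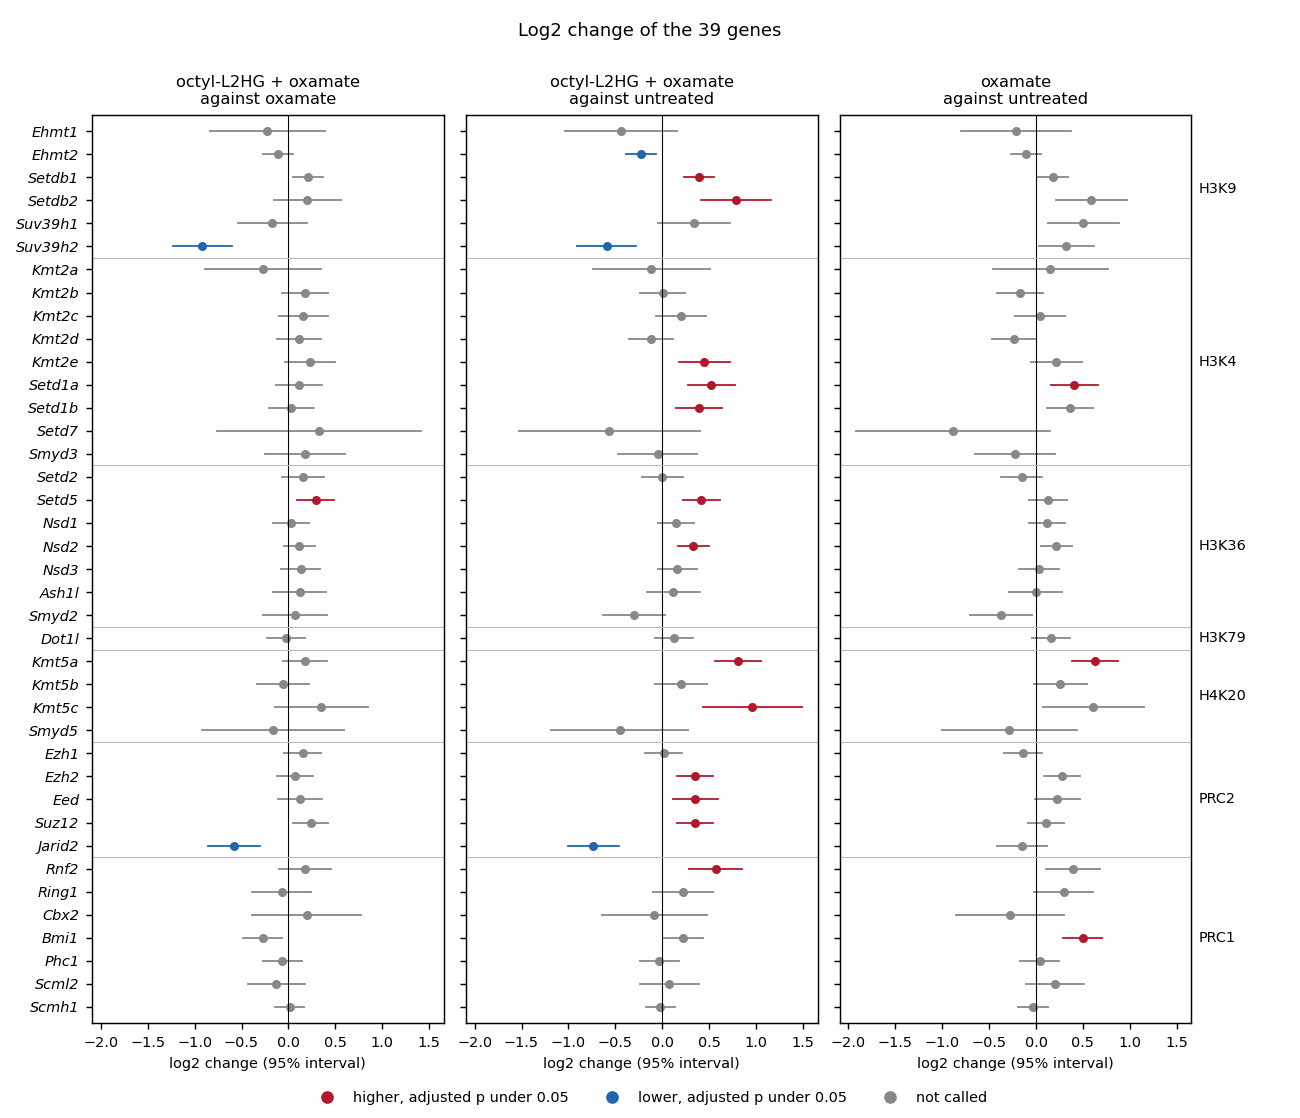
Log2 change with its 95% interval for each of the 39 genes in the 3 comparisons, ordered by methylated residue or complex; red marks genes called higher, blue those called lower. Suv39h2 and Jarid2 are the blue points in both comparisons that involve octyl-L2HG, and Kmt5a is red in both comparisons against untreated cells.

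Of the 6 H3 lysine 9 methyltransferase genes, 1 was called lower with octyl-L2HG against oxamate, beside 15.4% of all tested genes. With oxamate against untreated 0 were called, beside 5.74% of all genes higher and 3.84% lower. In octyl-L2HG plus oxamate against untreated 2 were higher and 2 lower, beside 17.2% and 21.1% of all genes. Suv39h2 had 6.81, 8.49 and 10.04 CPM in octyl-L2HG plus oxamate libraries A, B and C, 15.4, 14.9 and 16.6 CPM in oxamate libraries, and 13.2, 12.3 and 11.9 CPM in untreated libraries. All 3 octyl-L2HG plus oxamate libraries lay below all others, and the oxamate libraries lay above the untreated ones. It was 1.89-fold lower in octyl-L2HG plus oxamate than in oxamate cells (log2 change -0.92 ± 0.14 SE, limma adjusted p = 0.00067). It was 1.51-fold lower than in untreated cells (-0.59 ± 0.14, adjusted p = 0.0072). Between oxamate and untreated cells its log2 change of 0.32 ± 0.14 did not pass (adjusted p = 0.15). Octyl-L2HG plus oxamate library C, which had the most spermatid marker RNA of its group, also had the most Suv39h2 of its group. Between oxamate and untreated cells the order differed, with more Suv39h2 and less elongating spermatid marker RNA in every oxamate library. A link between these levels was not tested. Without octyl-L2HG plus oxamate library C the log2 change of Suv39h2 against oxamate was -1.06 (limma adjusted p = 0.00017). Suv39h2 was called lower against oxamate under all 18 alternative settings tried, with log2 changes of -1.06 to -0.74.

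The window upstream of Suv39h2 is shown because the gene had the largest change of the 39 with octyl-L2HG against oxamate; capitals mark a cAMP response element, TGACGTCA, read on both strands. The gene lies on the minus strand at chr2:3455815-3475031. The stretch is 205 bases of the minus strand, chr2:3475032-3475236 in GRCm38.p6 (RefSeq), directly before the gene's span in the deposited table, and outside annotated exons.
Suv39h2: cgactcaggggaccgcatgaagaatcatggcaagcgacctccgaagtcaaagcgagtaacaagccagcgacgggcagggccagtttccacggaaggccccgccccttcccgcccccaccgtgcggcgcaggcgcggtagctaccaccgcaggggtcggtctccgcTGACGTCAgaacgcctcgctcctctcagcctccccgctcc
This element was in the 250-base window of 1 of the 30 members with a RefSeq promoter entry, and in 1.55% of all 32851 promoter windows. A match is a run of letters and not a measured binding site.

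Suv39h1, the X-linked paralog, had 3.22, 3.83 and 4.44 CPM in octyl-L2HG plus oxamate libraries, 4.50, 4.40 and 3.89 CPM in oxamate libraries and 2.56, 3.33 and 3.24 CPM in untreated libraries. The oxamate libraries stood above the untreated ones and overlapped with those given octyl-L2HG. Its log2 change with oxamate against untreated was 0.50 ± 0.17 (limma adjusted p = 0.091), and with the letter as a block it was called higher (adjusted p = 0.045). Of the exon bases of Suv39h1, 14.6% lie under exons of another gene, and of those of Suv39h2, 9.98%. For Smyd2 this share is 30%, and for Kmt2e it is 9.31%. Those genes lie on the opposite strand, and no source used here says whether counting kept the strands apart, so the counts are uncertain to that extent.

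Setdb1, which silences retroelements through H3 lysine 9 trimethylation, had 117, 118 and 127 CPM in octyl-L2HG plus oxamate libraries, 103, 104 and 107 CPM in oxamate libraries and 92.5, 89.7 and 95.1 CPM in untreated libraries. The 3 groups were fully apart. Setdb1 was 1.31-fold higher in octyl-L2HG plus oxamate than in untreated cells (log2 change 0.39 ± 0.07, limma adjusted p = 0.0015). Neither step alone passed: the change was 0.21 ± 0.07 with octyl-L2HG against oxamate (adjusted p = 0.070) and 0.18 ± 0.07 with oxamate against untreated (adjusted p = 0.14; 0.047 with the letter as a block). Setdb2, its less studied relative, had 28.2, 33.8 and 23.8 CPM in octyl-L2HG plus oxamate libraries, 20.4, 29.2 and 24.8 CPM in oxamate libraries and 13.7, 18.8 and 16.9 CPM in untreated libraries. Every library with oxamate was above every untreated one, and the 2 oxamate-containing groups overlapped. Its log2 change was 0.79 ± 0.17 for octyl-L2HG plus oxamate against untreated (limma adjusted p = 0.0034). For oxamate against untreated it was 0.59 ± 0.17 (adjusted p = 0.054; 0.0058 with the letter as a block).

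Ehmt2, whose product dimethylates H3 lysine 9 and is needed for meiotic progression, had 318, 333 and 328 CPM in octyl-L2HG plus oxamate libraries, 355, 371 and 335 CPM in oxamate libraries and 368, 406 and 370.3 CPM in untreated libraries. The octyl-L2HG plus oxamate libraries were below all others, and the oxamate and untreated libraries overlapped. It was called lower against untreated cells (log2 change -0.22 ± 0.07, limma adjusted p = 0.030) but not against oxamate (-0.12 ± 0.07, adjusted p = 0.32). The call against untreated was lost without octyl-L2HG plus oxamate library A or C or untreated library B, with adjusted p up to 0.097. Ehmt1, whose protein GLP pairs with G9a, had 0.44 to 0.53 CPM, 0.43 to 0.69 CPM and 0.56 to 0.87 CPM in the octyl-L2HG plus oxamate, oxamate and untreated libraries and was called in no comparison.

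**Figure D3:**
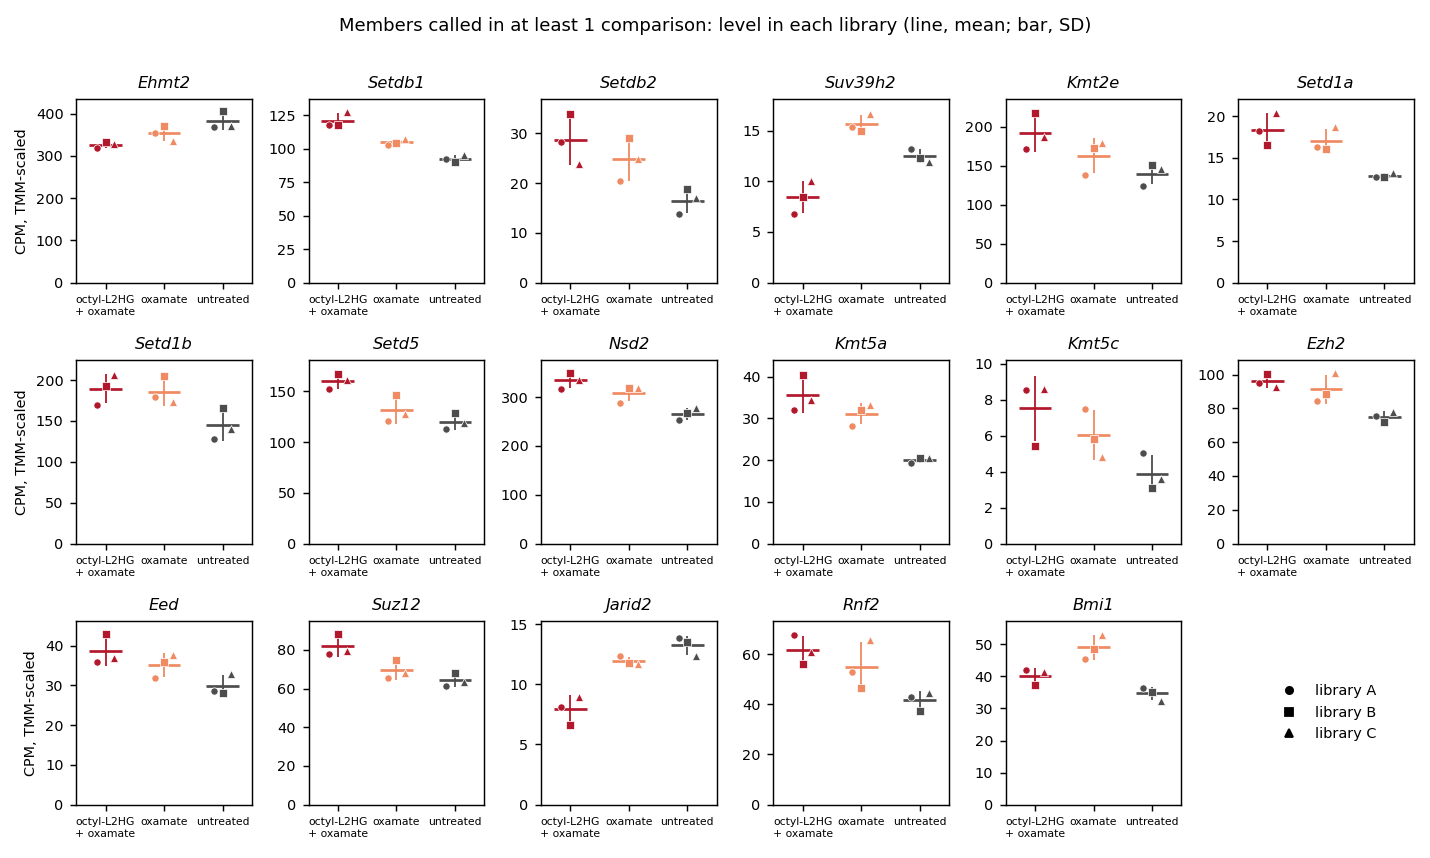
CPM in each library for the 17 members called in at least 1 comparison, with octyl-L2HG plus oxamate, oxamate and untreated cells from left to right; lines are means, bars are SD (n = 3), and marker shapes give the library letter. Suv39h2 and Jarid2 are lowest in the octyl-L2HG plus oxamate libraries, Bmi1 is highest in the oxamate libraries, and most others are lowest in the untreated libraries.

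Of the 9 H3 lysine 4 genes, 1 was called higher with oxamate against untreated, beside 5.74% of all tested genes. With octyl-L2HG against oxamate 0 were called, beside 4.11% of all genes higher and 15.4% lower. In octyl-L2HG plus oxamate against untreated 3 were called higher, beside 17.2% of all genes. These were Setd1a, its paralog Setd1b, and Kmt2e, a SET-domain protein thought to lack methyltransferase activity. Setd1a had 18.2, 16.5 and 20.4 CPM in octyl-L2HG plus oxamate libraries, 16.4, 16.1 and 18.7 CPM in oxamate libraries and 12.6, 12.7 and 13.2 CPM in untreated libraries. The untreated libraries were the lowest and the other groups overlapped. Its log2 change was 0.41 ± 0.12 for oxamate against untreated (limma adjusted p = 0.048), a call lost without any 1 of the oxamate or untreated libraries or octyl-L2HG plus oxamate library A and in 10 of 18 alternative settings in all, and 0.52 ± 0.11 for octyl-L2HG plus oxamate against untreated (adjusted p = 0.0037). The other 3 settings that lost the oxamate call of Setd1a were upper quartile scaling, no filter on low counts, and removal of the length and GC trends, with adjusted p up to 0.17 over all 18. Of its exon bases, 51.8% lie under a same-strand gene model, Gm49388, so its count is uncertain. Setd1b had 170.0, 193 and 206 CPM in octyl-L2HG plus oxamate libraries, 179, 205 and 173 CPM in oxamate libraries and 128, 166 and 140.3 CPM in untreated libraries. Here too the untreated libraries lay below the rest. The log2 change was 0.40 ± 0.11 for octyl-L2HG plus oxamate against untreated (adjusted p = 0.015) and 0.37 ± 0.11 for oxamate against untreated (adjusted p = 0.062; 0.010 with the letter as a block). The call of Setd1b in octyl-L2HG plus oxamate was lost without octyl-L2HG plus oxamate library C or untreated library A or C, with adjusted p up to 0.094 over all alternatives.

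Kmt2e had 171, 217 and 187 CPM in octyl-L2HG plus oxamate libraries, 138, 172 and 179 CPM in oxamate libraries and 124, 150.1 and 145 CPM in untreated libraries. The oxamate libraries overlapped with both other groups, which were apart from each other. Its log2 change was 0.45 ± 0.12 for octyl-L2HG plus oxamate against untreated (limma adjusted p = 0.013). For oxamate against untreated it was 0.22 ± 0.12 (adjusted p = 0.29; 0.045 with the letter as a block). The call in octyl-L2HG plus oxamate was lost without untreated library A (adjusted p = 0.070). Kmt2b, needed for H3 lysine 4 methylation at many promoters and known for a role in the germ line, had 145, 132 and 170.3 CPM in octyl-L2HG plus oxamate libraries, 137, 141 and 118 CPM in oxamate libraries and 137, 161 and 148 CPM in untreated libraries. All 3 groups overlapped, and no log2 change of Kmt2b exceeded 0.18 in size. The other H3 lysine 4 genes, the MLL family members Kmt2a, Kmt2c and Kmt2d and the smaller Setd7 and Smyd3, were called in no comparison of the main fit. Kmt2d came closest among them with oxamate against untreated (log2 change -0.23 ± 0.11, adjusted p = 0.19), with its 3 oxamate libraries at 172 to 177 CPM below its 3 untreated libraries at 191 to 219 CPM. Prdm9, the H3 lysine 4 and lysine 36 methyltransferase that places recombination sites in early meiosis, is not among the 39 and had only 11 to 33 counts per library (0.35 to 0.90 CPM), with no call.

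Setd5 and Nsd2 were the called genes among the 7 of the H3 lysine 36 group. Both were called higher in octyl-L2HG plus oxamate against untreated, beside 17.2% of all tested genes. With octyl-L2HG against oxamate only Setd5 was called higher, beside 4.11% of all genes. Setd5, whose own methyltransferase activity is disputed, had 152, 168 and 161 CPM in octyl-L2HG plus oxamate libraries, 121, 146 and 128 CPM in oxamate libraries and 113, 128 and 119 CPM in untreated libraries. The octyl-L2HG plus oxamate libraries were above all others, and the oxamate and untreated libraries overlapped. It was 1.221-fold higher in octyl-L2HG plus oxamate than in oxamate cells (log2 change 0.29 ± 0.09, limma adjusted p = 0.044) and 1.34-fold higher than in untreated cells (0.42 ± 0.09, adjusted p = 0.0036). Nsd2, a dimethyltransferase of H3 lysine 36, had 317, 349 and 336 CPM in octyl-L2HG plus oxamate libraries, 289, 318 and 318 CPM in oxamate libraries and 253, 267 and 277 CPM in untreated libraries. The untreated libraries were the lowest. The log2 change was 0.33 ± 0.08 for octyl-L2HG plus oxamate against untreated (limma adjusted p = 0.0049) and 0.22 ± 0.08 for oxamate against untreated (adjusted p = 0.097; 0.018 with the letter as a block). With the length and GC trends removed, the larger of these was 0.04 (adjusted p = 0.62). Setd2, which encodes the main trimethylating enzyme of this residue and is needed for spermatid development, held a log2 change of 0.00 ± 0.10 for octyl-L2HG plus oxamate against untreated in the main fit. Nsd1, Nsd3, Ash1l and Smyd2 were not called either, with log2 changes between -0.37 and 0.16 over the 3 comparisons.

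Dot1l, the only H3 lysine 79 methyltransferase, was called in no comparison. It had 599, 584 and 660.1 CPM in octyl-L2HG plus oxamate libraries, 641, 683 and 562 CPM in oxamate libraries and 526, 616 and 548 CPM in untreated libraries. The 3 groups overlapped. Its log2 change was -0.03 for octyl-L2HG plus oxamate against oxamate (95% interval -0.23 to 0.17), 0.16 for oxamate against untreated (-0.05 to 0.36) and 0.13 for octyl-L2HG plus oxamate against untreated (-0.07 to 0.33).

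The H4 lysine 20 genes held the largest called rises against untreated cells. Their summed level was 57.3, 67.1 and 60.6 CPM in octyl-L2HG plus oxamate libraries, 52.7, 57.7 and 58.5 CPM in oxamate libraries and 40.5, 39.8 and 40.2 CPM in untreated libraries. All 6 libraries with oxamate were above all 3 without it. Most of the difference came from Kmt5a, which had 31.9, 40.5 and 34.4 CPM in octyl-L2HG plus oxamate libraries, 28.3, 32.0 and 33.2 CPM in oxamate libraries and 19.3, 20.6 and 20.5 CPM in untreated libraries. The untreated libraries were the lowest, and the other groups overlapped. Kmt5a was 1.55-fold higher in oxamate than in untreated cells (log2 change 0.63 ± 0.11, limma adjusted p = 0.0084) and 1.75-fold higher in octyl-L2HG plus oxamate than in untreated cells (0.80 ± 0.11, adjusted p = 0.00020). The change with octyl-L2HG against oxamate was 0.17 ± 0.11 (adjusted p = 0.30). Kmt5a was called under all 18 alternative settings of the oxamate comparison, with log2 changes of 0.58 to 0.70.

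Kmt5c, which carries H4 lysine 20 on to trimethylation in heterochromatin, had 8.53, 5.46 and 8.599 CPM in octyl-L2HG plus oxamate libraries, 7.52, 5.81 and 4.80 CPM in oxamate libraries and 5.03, 3.07 and 3.60 CPM in untreated libraries. The octyl-L2HG plus oxamate libraries stood above the untreated ones, while the oxamate libraries overlapped with both. It was 1.94-fold higher in octyl-L2HG plus oxamate than in untreated cells (log2 change 0.96 ± 0.24, limma adjusted p = 0.0083). The change with oxamate against untreated was 0.61 ± 0.25 (adjusted p = 0.14; 0.024 with the letter as a block). Its paralog Kmt5b was not called in the main fit, with 15.8 to 20.7 CPM in the libraries with oxamate and 15.1 to 15.4 CPM in untreated libraries, and neither was the weakly expressed Smyd5. The upstream windows of Kmt5a and Kmt5c are shown because these genes rose most; capitals mark CCAAT boxes (CCAAT, either strand) and, in Kmt5c, an E2F element (TTTCCCGC, here on the minus strand). The genes lie on the plus strand at chr5:124439930-124462308 and chr7:4740115-4747514. The Kmt5a window, the first of 3 listed for the gene, is the plus strand of chr5:124439680-124439929 and the Kmt5c window the plus strand of chr7:4739877-4740114 (GRCm38.p6, RefSeq), both outside annotated exons.
Kmt5a: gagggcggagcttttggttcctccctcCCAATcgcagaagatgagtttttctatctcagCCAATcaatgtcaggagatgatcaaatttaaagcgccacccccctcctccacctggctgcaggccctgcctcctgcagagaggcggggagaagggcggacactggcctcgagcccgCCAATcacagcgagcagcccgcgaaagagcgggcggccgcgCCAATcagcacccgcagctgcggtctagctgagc
Kmt5c: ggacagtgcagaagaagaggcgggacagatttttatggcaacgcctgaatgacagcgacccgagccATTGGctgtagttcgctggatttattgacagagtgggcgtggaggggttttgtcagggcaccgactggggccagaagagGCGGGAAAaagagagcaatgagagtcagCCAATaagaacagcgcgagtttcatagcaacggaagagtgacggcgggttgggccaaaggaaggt
There were 4 CCAAT boxes in the Kmt5a stretch and 2 in that of Kmt5c. Over the 250-base windows a CCAAT box was found in 9 of 30 members and in 33.8% of all promoters, and an E2F element (TTTGGCGC or TTTCCCGC) in 2 of 30 members, Kmt5c and Suz12, and in 1.30% of all promoters.

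In octyl-L2HG plus oxamate against untreated cells, 3 core subunits of PRC2 rose and the recruiting factor Jarid2 fell. These 3 called higher and 1 called lower of 5 genes stand beside 17.2% and 21.1% of all tested genes. Ezh2, the catalytic subunit, had 94.9, 101 and 92.7 CPM in octyl-L2HG plus oxamate libraries, 84.6, 88.5 and 101 CPM in oxamate libraries and 75.2, 71.8 and 78.1 CPM in untreated libraries. Suz12, a scaffold of the complex, had 77.9, 88.3 and 79.5 CPM in octyl-L2HG plus oxamate libraries, 65.3, 74.9 and 68.2 CPM in oxamate libraries and 61.4, 68.1 and 63.6 CPM in untreated libraries. Eed, which binds the methylated lysine and stimulates the enzyme, had 35.96, 42.8 and 36.9 CPM in octyl-L2HG plus oxamate libraries, 31.8, 35.98 and 37.5 CPM in oxamate libraries and 28.7, 28.2 and 32.9 CPM in untreated libraries. For all 3 genes every octyl-L2HG plus oxamate library was above every untreated one, and for Suz12 above every oxamate one as well. The log2 changes against untreated were close in size, 0.35 ± 0.09 for Ezh2 (limma adjusted p = 0.0077), 0.34 ± 0.09 for Suz12 (adjusted p = 0.0090) and 0.35 ± 0.11 for Eed (adjusted p = 0.023). With oxamate against untreated Ezh2 changed by 0.28 ± 0.09 (adjusted p = 0.066; 0.026 with the letter as a block). With the length and GC trends removed, the change of Suz12 in octyl-L2HG plus oxamate against untreated was 0.05 (adjusted p = 0.63), and that of Ezh2 was 0.17 (adjusted p = 0.096), while Eed kept its call. Calls were also lost without untreated library C for Suz12, without untreated library B for Ezh2, and without octyl-L2HG plus oxamate library B or untreated library A or B for Eed, with adjusted p up to 0.12 over all alternatives. Ezh1, the second catalytic subunit, was called in no comparison, with 22.5 to 23.8 CPM in octyl-L2HG plus oxamate, 19.7 to 21.9 CPM in oxamate and 22.6 to 24.0 CPM in untreated libraries.

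Jarid2 had 8.11, 6.64 and 8.95 CPM in octyl-L2HG plus oxamate libraries, 12.3, 11.8 and 11.6 CPM in oxamate libraries and 13.9, 13.5 and 12.3 CPM in untreated libraries. The octyl-L2HG plus oxamate libraries were the lowest, and library C was again the highest of its group. Library B was the lowest of that group in Jarid2, while library A was the lowest in spermatid marker RNA. Jarid2 was 1.496-fold lower in octyl-L2HG plus oxamate than in oxamate cells (log2 change -0.58 ± 0.13, limma adjusted p = 0.0066) and 1.66-fold lower than in untreated cells (-0.73 ± 0.13, adjusted p = 0.00079). Without octyl-L2HG plus oxamate library C the change against oxamate was -0.67 (adjusted p = 0.0039), and all 18 alternative settings kept the call. With oxamate against untreated the change was -0.15 ± 0.12 (adjusted p = 0.46). A promoter window of Jarid2 is shown as that of the second gene called lower; capitals mark its CCAAT box. It precedes a RefSeq start inside the gene's span in the deposited table, not the outer end of that span. It is the plus strand of chr13:44730524-44730773 in GRCm38.p6 (RefSeq), the first of 2 windows listed for the gene, which spans chr13:44729474-44921643.
Jarid2: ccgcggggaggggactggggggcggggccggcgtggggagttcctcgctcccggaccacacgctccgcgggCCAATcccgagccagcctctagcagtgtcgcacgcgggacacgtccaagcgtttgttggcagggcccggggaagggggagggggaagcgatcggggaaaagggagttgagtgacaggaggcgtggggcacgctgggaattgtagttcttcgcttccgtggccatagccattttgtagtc

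Of the 7 PRC1 and related genes, Bmi1 alone was called higher with oxamate against untreated, beside 5.74% of all tested genes. Rnf2 alone was called higher in octyl-L2HG plus oxamate against untreated, beside 17.2% of all genes. With octyl-L2HG against oxamate 0 were called, beside 4.11% of all genes higher and 15.4% lower. Bmi1 had 42.1, 37.4 and 41.3 CPM in octyl-L2HG plus oxamate libraries, 45.5, 48.7 and 53.1 CPM in oxamate libraries and 36.4, 35.3 and 32.4 CPM in untreated libraries. The oxamate libraries were above all others, and the octyl-L2HG plus oxamate libraries lay between them and the untreated ones without overlap. Bmi1 was 1.41-fold higher in oxamate than in untreated cells (log2 change 0.50 ± 0.09, limma adjusted p = 0.010). The change with octyl-L2HG against oxamate was -0.28 ± 0.09 (adjusted p = 0.060), and that of octyl-L2HG plus oxamate against untreated 0.22 ± 0.10 (adjusted p = 0.089). The call with oxamate was lost without untreated library C (adjusted p = 0.074) and kept under the other 17 alternative settings. The upstream window of Bmi1 (gene at chr2:18677018-18686629), the plus strand of chr2:18676768-18677017 (GRCm38.p6, RefSeq), is shown for the PRC1 gene called with oxamate alone; capitals mark an E-box, CACGTG.
Bmi1: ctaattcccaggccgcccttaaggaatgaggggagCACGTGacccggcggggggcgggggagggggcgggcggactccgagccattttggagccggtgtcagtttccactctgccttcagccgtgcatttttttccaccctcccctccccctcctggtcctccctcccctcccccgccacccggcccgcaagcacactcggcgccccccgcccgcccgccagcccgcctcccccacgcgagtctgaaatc
An E-box was in the windows of 2 of 30 members, Ehmt2 and Bmi1, and in 6.02% of all promoters. A GC box (GGGCGG, either strand) was in 20 of 30 member windows and in 32.7% of all promoters, which include those of noncoding genes.

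Rnf2, the main ubiquitin ligase subunit of PRC1, had 67.6, 55.9 and 61.0 CPM in octyl-L2HG plus oxamate libraries, 52.9, 46.4 and 65.7 CPM in oxamate libraries and 42.8, 37.5 and 44.4 CPM in untreated libraries. Every library with oxamate was above every untreated one. Its log2 change was 0.57 ± 0.13 for octyl-L2HG plus oxamate against untreated (limma adjusted p = 0.0050), and 0.39 ± 0.13 for oxamate against untreated (adjusted p = 0.083; 0.013 with the letter as a block). With the length and GC trends removed, the larger change was 0.21 (adjusted p = 0.24). Scml2, an X-linked, germline-enriched polycomb protein known to act on the sex chromosomes, had 4.96, 5.94 and 6.01 CPM in octyl-L2HG plus oxamate libraries, 5.52, 6.56 and 6.28 CPM in oxamate libraries and 4.85, 5.85 and 5.31 CPM in untreated libraries. The 3 groups overlapped and Scml2 was called in no comparison. Ring1, the paralog of Rnf2, the chromodomain gene Cbx2, Phc1 and Scmh1 were not called in the main fit either, with log2 changes between -0.28 and 0.29 over the 3 comparisons.

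Where paralogs share a residue, a single gene of each pair carried most of the RNA in several cases. The log2 ratio of Ehmt1 to Ehmt2 was -9.31 ± 0.16 in octyl-L2HG plus oxamate, -9.21 ± 0.44 in oxamate and -9.09 ± 0.38 in untreated cells (SD, n = 3 each). That of Kmt2a to Kmt2b was -6.46 ± 0.39, -6.04 ± 0.20 and -6.36 ± 0.49 in the same order. These log2 ratios are of CPM and are not corrected for transcript length. The log2 ratio of Suv39h1 to Suv39h2 was -1.13 ± 0.05 in octyl-L2HG plus oxamate, -1.87 ± 0.19 in oxamate and -2.04 ± 0.28 in untreated cells. The octyl-L2HG plus oxamate libraries were apart from both other groups, which overlapped. The log2 ratio of Ezh1 to Ezh2 was -2.04 ± 0.10 in octyl-L2HG plus oxamate, -2.12 ± 0.12 in oxamate and -1.69 ± 0.11 in untreated cells, with the untreated libraries apart and the others overlapping. These ratios are a description, with no test, as the plot of paralog balance shows.

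**Figure D4:**
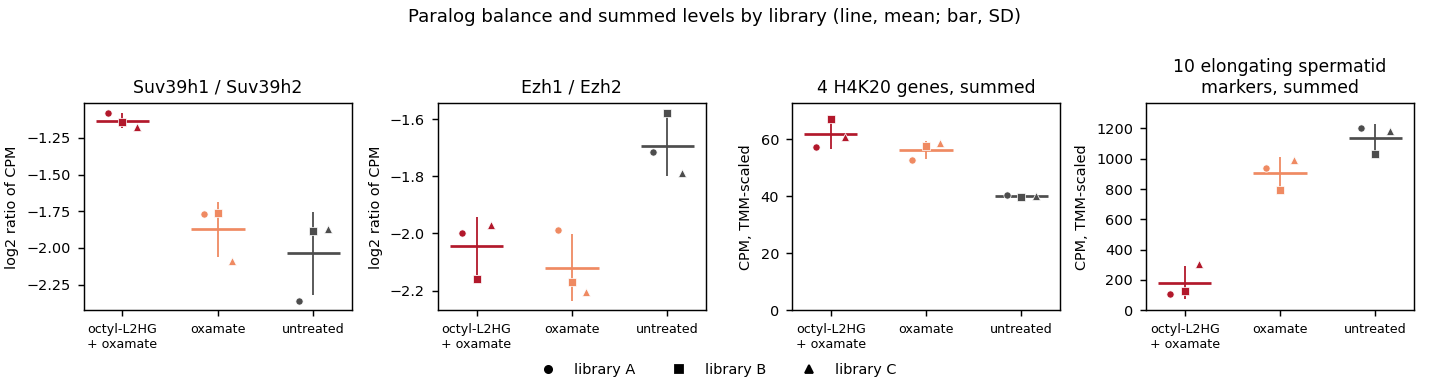
Log2 ratio of CPM for Suv39h1 over Suv39h2 and for Ezh1 over Ezh2, and summed CPM of the 4 H4 lysine 20 genes and of 10 elongating spermatid markers, in each library of the octyl-L2HG plus oxamate, oxamate and untreated groups from left to right (line, mean; bar, SD, n = 3). The H4 lysine 20 sum is lowest in untreated cells, and the spermatid marker sum is lowest in octyl-L2HG plus oxamate cells.

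The partner genes of these enzymes were 72 further subunits, readers and related SET and PRDM genes, of which 63 were tested. With oxamate against untreated, 9 were called higher and 0 lower, beside 5.74% and 3.84% of all genes. With octyl-L2HG against oxamate, 6 were called higher and 5 lower, beside 4.11% and 15.4% of all genes. In octyl-L2HG plus oxamate against untreated, 22 were called higher and 7 lower, beside 17.2% and 21.1% of all genes. At an unadjusted p under 0.05 in the oxamate comparison, 16 of the 63 were higher and 5 lower, beside 14.0% and 12.6% of all genes. With the letter as a block there were again 16 higher and 5 lower, beside 12.1% and 9.99% of all genes. The rises with oxamate fell in the PRC1 list (Rybp, Mga, Phc3 and Bcor), the COMPASS list (Ncoa6, Hcfc1, Paxip1 and Cxxc1) and the H3 lysine 9 list (Wiz). Mga, the DNA-binding subunit of the variant PRC1.6 that represses meiotic genes in other cells, had 79.8, 85.0 and 84.0 CPM in octyl-L2HG plus oxamate libraries, 59.1, 70.7 and 63.8 CPM in oxamate libraries and 40.3, 41.3 and 39.5 CPM in untreated libraries. The 3 groups were fully apart, and Mga was called in all 3 comparisons (limma log2 change 0.37 ± 0.08 with octyl-L2HG against oxamate, adjusted p = 0.0089; 0.67 ± 0.09 with oxamate against untreated, adjusted p = 0.0024). Phc3, a polyhomeotic subunit, followed the same order, with 17.8, 18.2 and 19.7 CPM, 12.2, 13.3 and 15.9 CPM, and 8.94, 7.96 and 7.92 CPM in the octyl-L2HG plus oxamate, oxamate and untreated libraries. Rybp, a subunit of variant PRC1, had 49.9 to 52.8 CPM in octyl-L2HG plus oxamate, 50.4 to 51.4 CPM in oxamate and 30.7 to 34.3 CPM in untreated libraries, so the groups with oxamate overlapped and the untreated one stood apart.

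With octyl-L2HG against oxamate, the PRC2 accessory genes Mtf2 (limma log2 change 0.43 ± 0.10, adjusted p = 0.0091) and Aebp2 (0.38 ± 0.10, adjusted p = 0.018) and the heterochromatin protein genes Cbx5 (0.39 ± 0.08, adjusted p = 0.0045) and Cbx1 (0.43 ± 0.10, adjusted p = 0.011) rose. Lower were Prdm16, a PR-domain transcription factor gene, Mllt3, whose protein joins DOT1L, the COMPASS subunit gene Dpy30, the variant PRC1 gene Bcorl1, and Prdm4. Prdm16 had 0.23, 0.44 and 0.48 CPM in octyl-L2HG plus oxamate libraries, 3.72, 3.23 and 2.66 CPM in oxamate libraries and 3.64, 3.07 and 2.79 CPM in untreated libraries. Dpy30 had 20.1, 19.8 and 25.2 CPM, 43.4, 35.6 and 40.6 CPM, and 42.2, 36.7 and 36.8 CPM in the same order of groups. In both genes the octyl-L2HG plus oxamate libraries stood apart and the oxamate and untreated libraries overlapped. In the same comparison all 10 elongating spermatid markers and 11 of the 12 round spermatid markers were called lower, beside 15.4% of all genes. Prm1, which packs sperm DNA, had 3.85, 3.56 and 14.1 CPM in octyl-L2HG plus oxamate, 33.6, 31.2 and 51.5 CPM in oxamate and 60.5, 52.1 and 71.9 CPM in untreated libraries. Whether the lower members and partners moved with the spermatid RNA was not tested.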

How the data were processed

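Poly-A libraries were made with a stranded mRNA kit, per the labels' protocols. Per the submitters' processing notes, the build was GRCm38 and the tools were TopHat2 2.1.1, cutadapt 1.18, bcl2fastq 2.18.0.12, DESeq2 1.22.2 and HTSeq 0.6.0. The deposited table of 55471 genes holds, per the file headers, raw counts, a normalized column per library (9, not used) and the log2 changes and adjusted p-values of the authors' own comparisons, which were only copied. For 6255 genes the deposited count cells hold a question mark. These genes were left out of the fit. With those cells present the columns had not been entered as counts, and limma-voom stood in for the planned edgeR test.

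The test took genes at or above the CPM of 10 counts in a library of median size, in at least 3 libraries, with 15 or more counts in all. Library sizes were corrected with trimmed means of M values (30% of log ratios and 5% of log levels trimmed) and fitted with limma 3.58.1 (voom, offset 0.5, robust empirical Bayes) in R 4.3.3, with all 9 libraries in one fit. P-values were adjusted by Benjamini-Hochberg over 18234 genes. Fold changes are on the log2 CPM scale, ± is SE for a change and SD for a level. Counting intervals were not needed beside the spread between libraries. Same-letter libraries of oxamate and untreated cells deviated together (correlations 0.40, 0.40 and 0.29), so the letter was taken to pair them. Between octyl-L2HG plus oxamate and oxamate the correlations for letters A, B and C were 0.31, 0.39 and 0.04. Between octyl-L2HG plus oxamate and untreated they were 0.17, 0.34 and 0.06. The letters were not taken to pair the octyl-L2HG plus oxamate libraries, but the block fit entered the letter for all 9 libraries. No 2 libraries of a group matched within sampling noise. The fit was tested on simulated data.

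The members, the partner and marker lists and the tests were chosen with earlier results of these data known. Library values are given for every member called in at least 1 comparison and for Ezh2, Ehmt2, Setdb1, Suv39h1, Suv39h2, Scml2, Dot1l, Kmt2b and Prdm9; partners are named when called, at most 4 per list and comparison in order of p. Exon lengths and overlaps come from GENCODE M21, whose coordinates equal the table's for all members but Scml2. Promoter windows are the 250 bases before the start in RefSeq GRCm38.p6, matched by symbol for 30 of 39 members.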

Additional observations from a re-analysis of the deposited data

How the results depend on the processing

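With oxamate against untreated, the 3 members called higher became 5 with only the 6 libraries compared (8.30% of all genes, against 5.74%), 12 with the letter as a replicate block (12.1%), 10 with the block and the length and GC trends removed together (11.2%), and 1 to 7 when 1 library was left out. With octyl-L2HG against oxamate, the 1 called higher became 2 with upper quartile scaling (5.26%, against 4.11%) and 4 with the replicate block (10.9%). It became 0 with no filter on low counts (0.851%), at least 1 CPM in 3 libraries (351 of 14055 genes), only the 6 libraries compared (0.825%) or the length and GC trends removed (6.09%). When 1 library was left out the count was 0 to 1, beside 1.38% to 3.83% of all genes. For octyl-L2HG plus oxamate against untreated, the 13 called higher became 8 with the length and GC trends removed (17.0% of all genes, against 17.2%). With the replicate block and these trends removed together, members called lower became 2 (against 0; 10.2% of all genes) for oxamate against untreated, 4 (against 2; 19.6%) for octyl-L2HG against oxamate, and 6 (against 3; 28.1%) for octyl-L2HG plus oxamate against untreated. The cause of these shifts was not tested. Under the other settings run, members called lower stayed within 1.5 times of the reported counts. For the comparisons with octyl-L2HG the letters were not taken to pair the libraries, and the block added Setdb1, Kmt2e, Suz12 and Bmi1 to the calls of octyl-L2HG against oxamate and Smyd2 to those of octyl-L2HG plus oxamate against untreated. No change called in the main fit or with the replicate block alone reversed its sign under any setting run. Changes called only under other settings were not followed in this way. With the replicate block and the length and GC trends removed together, Kmt2d and Setd2, not called in the main fit, were called in both comparisons against untreated. Ring1 was then called in oxamate against untreated, and Smyd5 in octyl-L2HG plus oxamate against untreated. The length and GC settings were added after the data were seen. Depth limits Setd7, Ehmt1 and Smyd5, with under 50 counts in every library.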
